A study of Mus musculus with 8 samples.

Results

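Oncostatin M (Osm) and tumour necrosis factor (Tnf) are cytokine genes whose products act on bone cells, and they were examined here with their receptors and with the RANK ligand system in flushed femoral bone of mice with and without Cre-mediated loss of Fgfr1. The rule named 10 genes: Osm, Tnf, Osmr, Lifr, Il6st, Tnfrsf1a, Tnfrsf1b, Tnfsf11, Tnfrsf11b and Tnfrsf11a. Of these, 7 are among the 1994 genes of the deposited table. Il6st, Tnfrsf1a and Tnfrsf1b are not listed in it, so their levels were not analysed here. The lowest mean over the 8 libraries among listed genes was 5.0 CPM, so a low level may also have kept genes out. Osm was chosen by its higher CPM in the FGFR1-CKO libraries, and every gene of the table was selected on its fold change and adjusted p between the same libraries. The difference between genotypes is therefore given for each of the 7 as a description without a test.

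Control mice carried the floxed receptor gene alone (Fgfr1f/f). FGFR1-CKO mice carried in addition the tamoxifen-activated Cre transgene (DMP1-CreER; Fgfr1f/f), whose Dmp1 promoter is used in late osteoblasts and osteocytes, so that cells of the blood lineages are not its intended target. The effect of Cre itself cannot be told apart from the loss of Fgfr1. Tamoxifen was fed to both groups in chow (400 mg/kg) for 4 weeks, starting when the mice were 12 weeks old, and cortical bone of the femoral shaft was taken at 16 weeks after the marrow had been flushed out with saline. The labels name no sex and no batch. From 6 Control and 7 FGFR1-CKO samples the submitters kept the 4 with the highest and the 4 with the lowest Fgfr1, respectively, and these 8 libraries make up the table.

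Oncostatin M belongs to the interleukin-6 family of cytokines. In mice it binds a pair of receptor chains made of the oncostatin M receptor, Osmr, and gp130, the product of Il6st, and it can also act through the leukaemia inhibitory factor receptor, Lifr, with gp130. The receptors signal through JAK kinases and STAT transcription factors. Neutrophils, macrophages and activated T cells are known sources of the cytokine, and osteoblasts and osteocytes carry its receptors. Tumour necrosis factor is made mainly by cells of the myeloid and lymphoid lineages and acts through Tnfrsf1a and Tnfrsf1b on NF-κB signalling. Its relative RANK ligand (Tnfsf11) is made in bone by osteocytes and osteoblasts and drives the formation of osteoclasts through the receptor RANK (Tnfrsf11a), and osteoprotegerin (Tnfrsf11b) is a secreted decoy that binds RANK ligand. Both oncostatin M and tumour necrosis factor are known to raise RANK ligand in bone cells.

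Library totals ran from 9642436 to 11094287 reads, and the listed genes took 24.2% to 35.1% of them. Levels are given as CPM, reads scaled to the same library total. Fgfr1, at 594 ± 71.3 CPM in Control against 318 ± 32.1 CPM in the FGFR1-CKO libraries (SD, n = 4 each), separated the groups, a separation that the choice of samples by Fgfr1 sets in part. An antisense gene, Gm16159, overlaps its exons, and the use of strand in counting is not given in the sources used here. Of the markers of the labelled tissue, 15 of 15 for osteoblasts and 8 of 12 for osteocytes were listed, Col1a1, Col1a2 and Sparc being the most abundant, and none was at 0. Blood cell markers were present as well, with 18 of 20 erythroid and 9 of 19 neutrophil markers listed. An earlier look at these data found Control replicate 4 and FGFR1-CKO replicate 3 apart from the other libraries of their groups, so values without both are given for the members and pathway genes whose call they change.

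The listing sets the background for the counts below. Of 18026 genes that the authors tested, 11.1% were listed, 4.04% as higher and 7.02% as lower. No listed gene had a mean below about 5.0 CPM, so the genes tested may include some too low to be listed. Among the 1994 listed genes, 90.5% had groups that did not overlap in CPM, so the lack of overlap found in all 7 members is near the share over the table. limma called 75.0% of listed genes at an adjusted p under 0.05 and a log2 fold change of 0.5 or more in size, 36.6% as higher and 38.4% as lower, and it called all 7 members. Genes past both limits are said below to have risen or fallen. The rule used this contrast, and nothing is read from these shares.

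Osm (ENSMUSG00000058755, mm10 chromosome 11, 4236420 to 4241026, plus strand) was the member with the largest fold change. The 4 Control libraries held 5.64, 6.58, 6.45 and 5.34 CPM for replicates 1 to 4, and the 4 FGFR1-CKO libraries 18.1, 19.8, 16.2 and 24.3 CPM. The lowest FGFR1-CKO library lay 9.66 CPM above the highest Control library, so the groups did not overlap. The means were 6.00 ± 0.61 CPM for Control and 19.6 ± 3.44 CPM for FGFR1-CKO (SD, n = 4 each), a ratio of 3.27. On log2(CPM + 1), the scale of all fold changes below, the difference was 1.55 (standard error 0.13; 95% interval 1.27 to 1.82). Between 56 and 235 reads lay behind each value. In the authors' deposited table Osm had a log2 fold change of 1.59, which ranks 4 from the top among all listed genes.

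Tnf (ENSMUSG00000024401, mm10 chromosome 17, 35199381 to 35202007, minus strand) was higher as well, by a smaller amount. Control replicates 1 to 4 held 4.95, 4.24, 4.97 and 4.10 CPM, and FGFR1-CKO replicates 1 to 4 held 7.05, 7.08, 6.05 and 7.75 CPM. Each FGFR1-CKO library was above each Control library, with 1.08 CPM between the nearest pair. The means were 4.56 ± 0.46 and 6.98 ± 0.70 CPM (SD, n = 4 each), a ratio of 1.53 and a log2 difference of 0.52 (standard error 0.11; 95% interval 0.27 to 0.77), from 43 to 75 reads per library. Tnf sits near the edge of the listing, in level and in fold change. The lowest mean over the 8 libraries of any listed gene was 5.0 CPM. The Control mean of Tnf lies below that value and its FGFR1-CKO mean above it. The authors' deposited table gives it a log2 fold change of 0.50, and it ranks 14 from the smallest among the 729 genes listed as higher, where the smallest are 0.495 for Pag1 and for Ezr. When the libraries were rescaled by the authors' size factors the log2 difference of Tnf was 0.43, below the 0.5 used here to call a gene, while the median of all genes shifted by -0.11.

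The sequence before the Tnf start site is shown because Tnf is the cytokine of the pair with a window in the RefSeq promoter table (GRCm38.p6, the same coordinates as mm10). That table has no window for Osm and Tnfrsf11b. The 250 bases before the start, chr17:35202008-35202257 on the minus strand, are written 5′ to 3′ with capitals at matches to the motifs searched.
Tnf: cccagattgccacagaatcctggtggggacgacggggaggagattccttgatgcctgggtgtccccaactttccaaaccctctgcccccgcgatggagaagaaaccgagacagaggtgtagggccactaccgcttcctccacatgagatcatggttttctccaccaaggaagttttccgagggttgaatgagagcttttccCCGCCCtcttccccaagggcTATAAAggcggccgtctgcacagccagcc
Each window was searched on both strands for TATAAA, the core of the TATA box, for GGGCGG, the GC box, for TTCNNNGAA, the form bound by STAT factors, for TGANTCA, the AP-1 form, for TGTGGT, a RUNX form, and for the NF-κB consensus by name. The Tnf window held 1 TATAAA, whose first base lies 29 bases before the start, and 1 GC box, which reads as its reverse complement here, with no overlap between them. Among 32851 RefSeq windows of the same length 12.4% held TATAAA, 32.7% GGGCGG, 7.0% TTCNNNGAA, 6.7% TGANTCA, 14% TGTGGT and 7.3% the NF-κB consensus. The letters of the other 4 motifs are not in this window.

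The level of Osm relative to Tnf also separated the groups. The ratio of their CPM was 1.14, 1.55, 1.30 and 1.30 in Control replicates 1 to 4 and 2.57, 2.80, 2.68 and 3.13 in FGFR1-CKO replicates 1 to 4. Every FGFR1-CKO library lay above every Control library. No test is attached, because Osm was picked for its higher level.

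**Figure D1:**
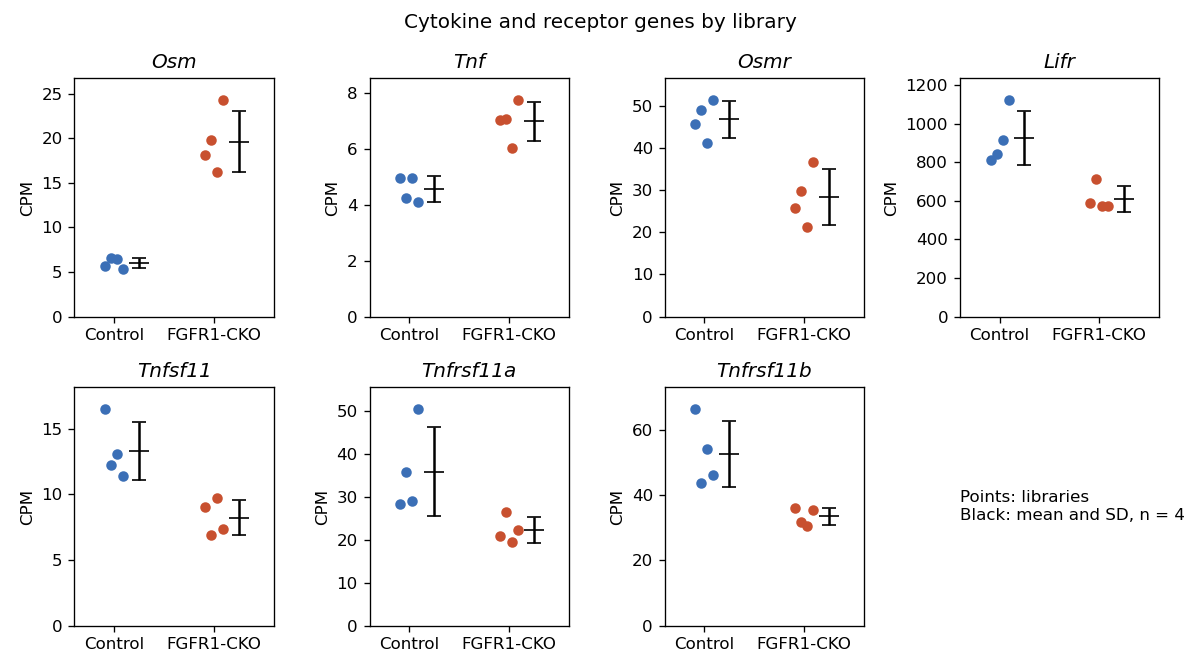
CPM (vertical axes, linear, from 0) of the 7 listed genes in the 4 Control (blue) and 4 FGFR1-CKO (orange) libraries, with points for libraries and the mean and SD in black. Osm and Tnf lie higher in FGFR1-CKO and the 5 receptor and RANK ligand genes lower, with no overlap of the groups for any of the 7, as for 90.5% of all listed genes.

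Listed markers of several blood cell types were higher in the same libraries. Of 19 neutrophil markers 9 were listed, and their summed level was 9094 to 11243 CPM in Control, against 14996 to 17514 CPM in FGFR1-CKO. All 9 rose, and the most abundant were Ngp (2990 ± 278 to 4688 ± 459 CPM), S100a9 (2541 ± 247 to 4218 ± 287 CPM) and Ltf (1886 ± 142 to 2900 ± 157 CPM; SD, n = 4 each), which encode granule and calcium-binding proteins of neutrophils. Their mean log2(CPM + 1) was 0.68 higher in FGFR1-CKO, and the 4 listed of 12 mast cell, basophil and eosinophil markers were 0.73 higher, the 18 listed erythroid markers 1.09 higher and the 3 listed of 15 B cell markers 0.87 higher. Of 17 monocyte and macrophage markers 2 were listed, Csf1r and Cd68, with a summed level of 384 to 571 CPM in Control, against 288 to 372 CPM in FGFR1-CKO. No T and NK cell or megakaryocyte marker is among the listed genes, so these sources could not be examined. No marker used was at 0 in any library. Markers that the table does not list are left out of these levels. In bulk tissue, more cells of a type and more RNA per cell cannot be told apart.

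Set against the 9 listed neutrophil markers of the same library, Osm stood apart between the groups and Tnf did not. Osm minus the neutrophil mean was -6.40, -5.90, -6.07 and -6.32 in Control replicates 1 to 4 and -5.51, -5.28, -5.46 and -4.99 in FGFR1-CKO replicates 1 to 4, so it was 0.87 higher in FGFR1-CKO and the groups did not overlap. Tnf minus the neutrophil mean was -6.56, -6.44, -6.39 and -6.63 in Control and -6.76, -6.64, -6.75 and -6.52 in FGFR1-CKO. The difference of the means was -0.16, and the groups overlapped. Against the erythroid markers Osm was 0.45 higher in FGFR1-CKO, from -4.83 to -4.51 in Control and from -4.54 to -3.91 in FGFR1-CKO, and the groups overlapped. Against the mast cell, basophil and eosinophil markers it was 0.81 higher and against the B cell markers 0.68 higher, without overlap in either. The widest difference was against the 2 listed of 17 monocyte and macrophage markers, which were themselves lower in FGFR1-CKO. Relative to them Osm was 1.96 and Tnf 0.93 higher, without overlap for either. Csf1r, of this pair, is also in the RANK signalling and osteoclast list below. The mean of Csf1r and Cd68 was highest in Control replicate 4 (7.92), which also had the highest mean of osteoclast markers. Against the erythroid markers Tnf differed by -0.57, again without overlap, and against the mast cell, basophil and eosinophil markers by -0.21 and the B cell markers by -0.35, with overlap in both. The added 1 CPM lowers the differences of genes as low as Osm and Tnf more than those of the abundant markers. Osm was picked for its higher level in FGFR1-CKO, which sets its differences from the markers in part, so no test is attached. Each marker mean holds only listed markers, which were kept for differing between the same libraries. The listing therefore sets these baselines in part, and nothing on cell number is read from them. What part these cells have in the cytokine levels was not tested.

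**Figure D2:**
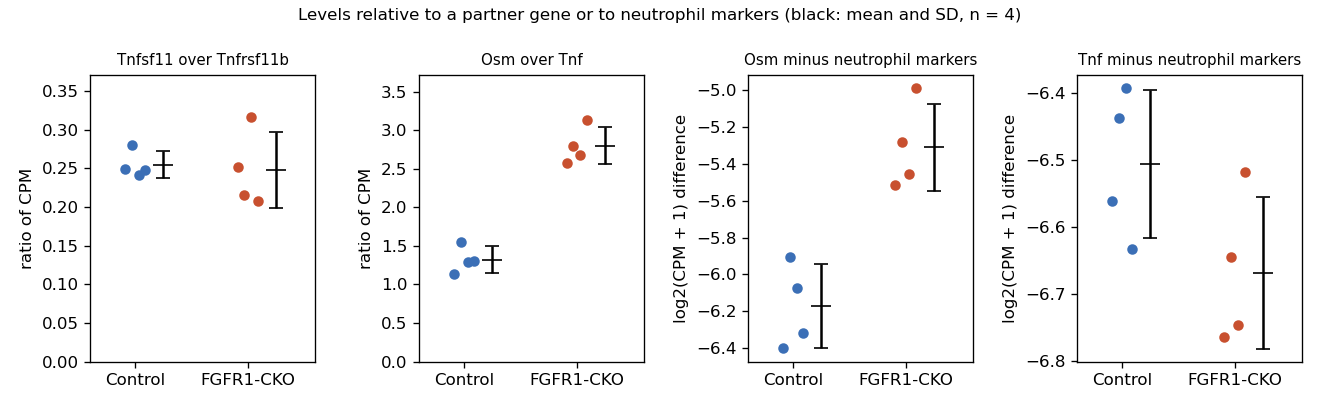
Ratio of CPM between 2 genes (first 2 panels, axes from 0) and difference in log2(CPM + 1) between a cytokine and the mean of 9 neutrophil markers (last 2 panels, axes not from 0) in 4 Control and 4 FGFR1-CKO libraries, with mean and SD in black. Osm separates the groups against Tnf and against the neutrophil markers, while Tnf against the markers and Tnfsf11 against Tnfrsf11b overlap. The markers used are those listed for differing between the same libraries, and Osm was picked for its higher level in FGFR1-CKO.

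The receptor chains for oncostatin M that were listed, Osmr and Lifr, were both lower. Osmr (ENSMUSG00000022146, mm10 chromosome 15, 6813577 to 6874969), the specific chain, held 45.7, 48.9, 41.1 and 51.4 CPM in Control replicates 1 to 4 and 25.8, 29.7, 21.2 and 36.7 CPM in FGFR1-CKO replicates 1 to 4. The highest FGFR1-CKO library lay 4.38 CPM below the lowest Control library. The means were 46.8 ± 4.46 and 28.4 ± 6.55 CPM (SD, n = 4 each), a ratio of 0.607 and a log2 difference of -0.72 (standard error 0.14). FGFR1-CKO replicate 4, which had the highest Osm, also had the highest Osmr of its group, and FGFR1-CKO replicate 3 had the lowest of both.

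Lifr (ENSMUSG00000054263, mm10 chromosome 15, 7090614 to 7197489), the receptor chain shared with leukaemia inhibitory factor, was the most abundant member. Control replicates 1 to 4 held 811, 845, 918 and 1124 CPM and FGFR1-CKO replicates 589, 712, 572 and 575 CPM, without overlap. The means were 924 ± 140.2 and 612 ± 67.1 CPM (SD, n = 4 each), a log2 difference of -0.59 (standard error 0.12). FGFR1-CKO replicate 2 stood above the other 3 libraries of its group. Control replicate 4 was the highest of all, and without it the difference was -0.49. Osmr over Lifr, as a ratio of CPM, was 0.0512 ± 0.00691 in Control and 0.0467 ± 0.0118 in FGFR1-CKO (SD, n = 4 each), and the groups overlapped.

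Osmr and Lifr lie on the same chromosome, and the windows before their RefSeq start sites are shown to compare receptor genes that moved the same way. Both are from RefSeq on GRCm38.p6: Osmr at chr15:6874314-6874563 on the minus strand and Lifr at chr15:7129322-7129571 on the plus strand, the more upstream of 2 Lifr windows in the table. Both windows lie inside the gene spans given above, which come from another annotation and begin farther upstream. They therefore do not precede the first annotated start of either gene. Capitals mark GGGCGG or its reverse complement.
Osmr: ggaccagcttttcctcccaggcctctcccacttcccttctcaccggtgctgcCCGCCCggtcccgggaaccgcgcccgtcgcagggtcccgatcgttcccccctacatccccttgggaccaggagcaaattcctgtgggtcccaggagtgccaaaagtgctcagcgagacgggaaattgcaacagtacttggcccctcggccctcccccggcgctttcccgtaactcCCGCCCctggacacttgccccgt
Lifr: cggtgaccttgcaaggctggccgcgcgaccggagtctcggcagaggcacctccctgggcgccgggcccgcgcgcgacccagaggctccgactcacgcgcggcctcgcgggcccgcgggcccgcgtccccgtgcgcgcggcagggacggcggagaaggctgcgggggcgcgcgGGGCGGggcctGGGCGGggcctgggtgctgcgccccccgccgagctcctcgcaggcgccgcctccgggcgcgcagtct
Each window held 2 GC boxes and none of the other 5 motifs. The G and C content was 66.0% for Osmr and 82.4% for Lifr, against 57.6% for the Tnf window.

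Markers of osteoblasts, which carry these receptors, were lower in the same FGFR1-CKO libraries: all 15 markers were listed, their summed level was 136150 to 189026 CPM in Control, against 75281 to 121304 CPM in FGFR1-CKO, and the difference of their mean log2 levels was -0.83. Relative to that mean, Osmr was 0.10 and Lifr 0.24 higher in FGFR1-CKO, with overlapping groups for both. Endothelial markers, 7 of 11 listed, were lower too, with a difference of -0.52 in their mean log2 level. The part of these cells in the receptor levels was not tested.

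Among the RANK ligand genes all 3 members were lower. Tnfsf11, encoding RANK ligand (ENSMUSG00000022015, mm10 chromosome 14, 78277445 to 78308043), held 16.5, 12.3, 13.1 and 11.4 CPM in Control replicates 1 to 4 and 9.02, 6.88, 9.70 and 7.34 CPM in FGFR1-CKO replicates 1 to 4. The nearest libraries of the groups were 1.74 CPM apart. The means were 13.3 ± 2.23 and 8.24 ± 1.34 CPM (SD, n = 4 each), a ratio of 0.618 and a log2 difference of -0.63 (standard error 0.14), from 68 to 167 reads per library.

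Tnfrsf11b, encoding osteoprotegerin (ENSMUSG00000063727, mm10 chromosome 15, 54250619 to 54278484), held 66.4, 43.7, 54.2 and 46.2 CPM in Control replicates 1 to 4 and 35.9, 31.9, 30.6 and 35.4 CPM in FGFR1-CKO replicates 1 to 4. The groups did not overlap. The means were 52.6 ± 10.2 and 33.4 ± 2.57 CPM (SD, n = 4 each), a log2 difference of -0.62 (standard error 0.12). Control replicate 1 was the highest library for both Tnfsf11 and Tnfrsf11b. The 8 listed osteocyte markers had a summed level of 2636 to 3149 CPM in Control, against 1668 to 1818 CPM in FGFR1-CKO. Relative to the mean log2 level of these markers, Tnfsf11 was 0.13 and Tnfrsf11b 0.14 higher in FGFR1-CKO, with overlapping groups for both, and the part of osteocyte number was not tested.

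The ratio of RANK ligand to its decoy is a common summary of the drive to form osteoclasts. Tnfsf11 over Tnfrsf11b was 0.249, 0.280, 0.242 and 0.247 in Control replicates 1 to 4 and 0.251, 0.216, 0.317 and 0.208 in FGFR1-CKO replicates 1 to 4. The mean was 0.255 ± 0.0175 in Control and 0.248 ± 0.0496 in FGFR1-CKO (SD, n = 4 each), a difference smaller than the spread between libraries. The FGFR1-CKO libraries lay on both sides of the Control libraries, so a change of the ratio was not detectable with these samples.

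RANK itself, Tnfrsf11a (ENSMUSG00000026321, mm10 chromosome 1, 105780718 to 105847981), is carried by osteoclasts and their precursors. It held 28.3, 35.9, 29.0 and 50.5 CPM in Control replicates 1 to 4 and 20.9, 26.5, 19.5 and 22.3 CPM in FGFR1-CKO replicates 1 to 4. The groups did not overlap but the nearest libraries were 1.78 CPM apart. The means were 35.9 ± 10.3 and 22.3 ± 3.02 CPM (SD, n = 4 each), a log2 difference of -0.63 (standard error 0.17). Control replicate 4 held the highest Tnfrsf11a and also the highest mean of 7 other osteoclast markers, 7.25 on log2(CPM + 1) against 6.15, 6.38 and 6.16 in Control replicates 1, 2 and 3. Without that library the Tnfrsf11a difference was -0.46, and without it and FGFR1-CKO replicate 3 it was -0.40. Of 12 osteoclast markers 8 were listed, RANK included, with Acp5, Ctsk and Ckb the most abundant. The summed level of the other 7 was 1582 to 3476 CPM in Control, against 856 to 1339 CPM in FGFR1-CKO, and Tnfrsf11a minus their mean was 0.31 higher in FGFR1-CKO, with no overlap. The part of osteoclast number in the level of Tnfrsf11a was not tested.

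The window before the Tnfsf11 start is shown beside that of Tnf because both ligand genes hold the same motif near the start. It covers chr14:78308044-78308293 on the minus strand (RefSeq, GRCm38.p6).
Tnfsf11: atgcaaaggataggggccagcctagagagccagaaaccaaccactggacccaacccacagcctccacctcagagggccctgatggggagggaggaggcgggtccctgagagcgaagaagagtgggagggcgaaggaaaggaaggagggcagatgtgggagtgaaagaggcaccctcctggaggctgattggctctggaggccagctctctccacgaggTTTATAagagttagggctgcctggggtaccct
The capitals are TATAAA read on the other strand, whose farther end lies 32 bases before the start, and the other 5 motifs are not in this window. The Tnfrsf11a window held 4 GC boxes and no other match.

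**Figure D3:**
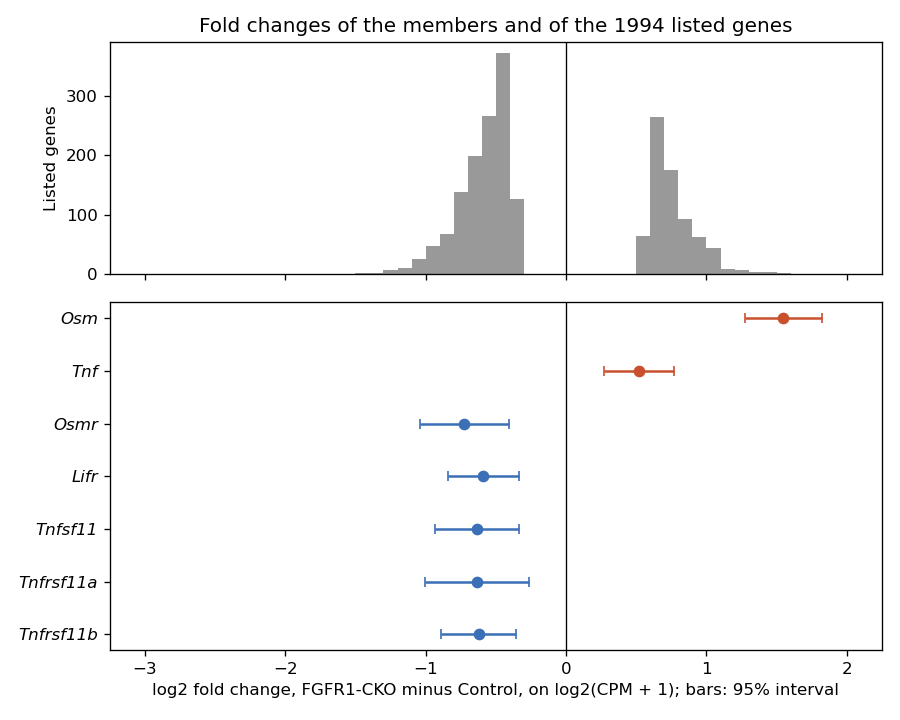
Top: number of listed genes by log2 fold change (FGFR1-CKO minus Control on log2(CPM + 1), bins of 0.1). Bottom: the same quantity for the 7 members with 95% confidence intervals from limma. Osm at 1.55 lies in the upper tail of the listed genes, Tnf at 0.52 at the low end of those that were higher, and the 5 other members between -0.72 and -0.59. The gap around 0 reflects the listing, which kept only genes that differed. The intervals take no account of that selection.

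Levels of different genes can be compared per length of their annotated exons. In Control, in CPM per kilobase, the order was Lifr (85.8 ± 13.01), Tnfrsf11b (18.7 ± 3.61), Tnfrsf11a (6.00 ± 1.72), Tnfsf11 (5.96 ± 0.998), Osmr (3.86 ± 0.368), Tnf (2.78 ± 0.281) and Osm (2.64 ± 0.267; SD, n = 4 each). Tnfrsf11a and Tnfsf11 did not differ beyond their spread, nor did Tnf and Osm. In FGFR1-CKO Lifr (56.8 ± 6.23) and Tnfrsf11b (11.9 ± 0.914) still led, and Osm came next at 8.64 ± 1.51. Tnf (4.26 ± 0.427), Tnfrsf11a (3.73 ± 0.504) and Tnfsf11 (3.68 ± 0.601) followed with overlapping libraries, and Osmr (2.34 ± 0.541) was lowest. Per length, Osm was thus lowest together with Tnf in Control and above all but Lifr and Tnfrsf11b in FGFR1-CKO, where Osmr was lowest. In every FGFR1-CKO library Osm exceeded Osmr per length, and in every Control library Osmr exceeded Osm. Osm was picked for its higher level and Osmr was listed for differing between the same libraries, so the selection sets this crossing in part. It also depends on the exon lengths used, 2272 bases for Osm and 12113 for Osmr. The lengths join all annotated exons, which understates genes whose long exons are little used.

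Other genes of these pathways were taken from 10 lists, chosen with earlier results of these data known. Across the lists 26 of 208 gene symbols were listed, 12.5% beside 11.1% of all genes tested by the authors. Tm7sf4 among them is an older name of Dcstamp, so that gene is counted under both names. By list the share ran from 2.8% for TNF processing and NF-κB signalling to 45.5% for the RANK signalling and osteoclast list. Of the 26, 5 rose, 14 fell and 7 did not pass, with a median log2 fold change of -0.60 against -0.43 over all listed genes. These genes too were listed for differing in the same contrast. The other ligands and receptors of the gp130 family had 3 of 16 genes listed. Lif, encoding leukaemia inhibitory factor, fell from 6.86 ± 1.79 to 3.76 ± 0.418 CPM (SD, n = 4 each), a log2 fold change of -0.70 (standard error 0.16), so this neighbour of Osm on chromosome 11 moved the other way. The receptor genes Il11ra1 (-0.43) and Lepr (-0.44) did not pass. The count that fell was 2 without Control replicate 2, 3 under size-factor rescaling and 0 with the filter at a mean of 10 CPM, which removes Lif. It was also 2 without Control replicate 4 and FGFR1-CKO replicate 3, where Il11ra1 passed at -0.52.

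Of 16 JAK and STAT transducers and feedback genes only Socs2, a feedback inhibitor of cytokine receptors, was listed, and it fell from 31.3 ± 3.11 to 20.3 ± 1.39 CPM (log2 fold change -0.60, standard error 0.09). It was also the 1 listed gene of 12 in the list of STAT5-induced genes. Of 28 genes known to respond to oncostatin M in some cell type 3 were listed, and all 3 fell, a listed share of 10.7% beside the 11.1% of all genes tested by the authors. Mmp13, a collagenase of osteoblasts, fell from 583 ± 167.3 to 230 ± 24.9 CPM (-1.30, standard error 0.17), Timp1, an inhibitor of metalloproteases, from 32.9 ± 7.39 to 14.3 ± 2.93 CPM (-1.14, standard error 0.17) and Tnc, the matrix protein tenascin C, from 2450 ± 356 to 1546 ± 188 CPM (-0.66, standard error 0.12; SD, n = 4 each). All 3 had groups that did not overlap. Without Control replicate 4 and FGFR1-CKO replicate 3 the count that fell was 2, as Tnc was then at -0.49 and did not pass. Socs3, the feedback gene best known for oncostatin M, is not listed.

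The listed genes of the TNF superfamily moved in both directions. They were 11.8% of the ligand genes and 12.5% of the further receptor genes, near the 11.1% of all genes tested by the authors. Of 17 ligand genes 2 were listed and both rose: Tnf and its neighbour in the genome Ltb, encoding lymphotoxin beta, which went from 11.3 ± 2.17 to 18.4 ± 1.39 CPM (0.68, standard error 0.12). The count was 1 under size-factor rescaling, with a pseudocount of 2, and without Control replicate 2, Control replicate 4 or FGFR1-CKO replicate 4, settings in which Tnf did not pass. Among 24 further receptor genes 3 were listed. Tnfrsf14, a receptor of lymphocytes and myeloid cells, rose from 56.9 ± 4.35 to 93.6 ± 8.09 CPM (0.71, standard error 0.09). Tnfrsf19, a receptor of mesenchymal cells, fell from 114 ± 21.0 to 56.9 ± 6.48 CPM (-0.98, standard error 0.13), and Tnfrsf23 did not pass (-0.46). The count that fell was 2 without Control replicate 3 and under size-factor rescaling. Of 36 genes of TNF processing and NF-κB signalling Traf1 alone was listed and did not pass (-0.36).

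Of 29 TNF response genes 2 were listed. Il1b, the cytokine interleukin 1 beta, rose from 15.1 ± 2.62 to 32.7 ± 5.11 CPM (1.07, standard error 0.14; SD, n = 4 each), with 11.4 to 17.4 CPM in Control libraries and 27.4 to 38.3 CPM in FGFR1-CKO libraries. Its exons overlap an antisense gene, Il1bos. Csf1, the growth factor of macrophages and osteoclast precursors, did not pass (-0.38). In the list of other cytokines 4 of 31 were listed, and besides Il1b and Csf1 these were Tgfb3, which fell (-0.59) but did not pass without Control replicate 1, and Il34, which did not pass (-0.36). The neutrophil markers named above were higher beside Ltb, Tnfrsf14 and Il1b too, and their part was not tested.

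In the RANK signalling and osteoclast list 10 of 22 symbols were listed, 45.5% beside 11.1% of all genes tested by the authors. Of the 10, 7 fell, 1 rose and 2 did not pass, where 38.4% of all listed genes fell and 36.6% rose. The 4 that fell most were Ocstamp, a fusion protein of osteoclasts (-1.15, standard error 0.26), Oscar, a co-stimulating receptor (-1.13, standard error 0.28), Atp6v0d2, a proton pump subunit (-1.01, standard error 0.23), and Acp5, the tartrate-resistant phosphatase (-0.98, standard error 0.26). The gene that rose, Car2, encodes a carbonic anhydrase of osteoclasts that red cell precursors also make (1.08, standard error 0.11), and it is itself in the erythroid list, whose markers were higher in the same libraries. Control replicate 4, the library with the highest osteoclast markers, takes part in these values, and 6 to 7 of the genes fell when each library was left out. Without it and FGFR1-CKO replicate 3 the count was 6, as Dcstamp, a fusion protein of osteoclasts, went from -0.60 to -0.39 and no longer passed. Csf1 and Csf1r, the latter at -0.43, did not pass.

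**Figure D4:**
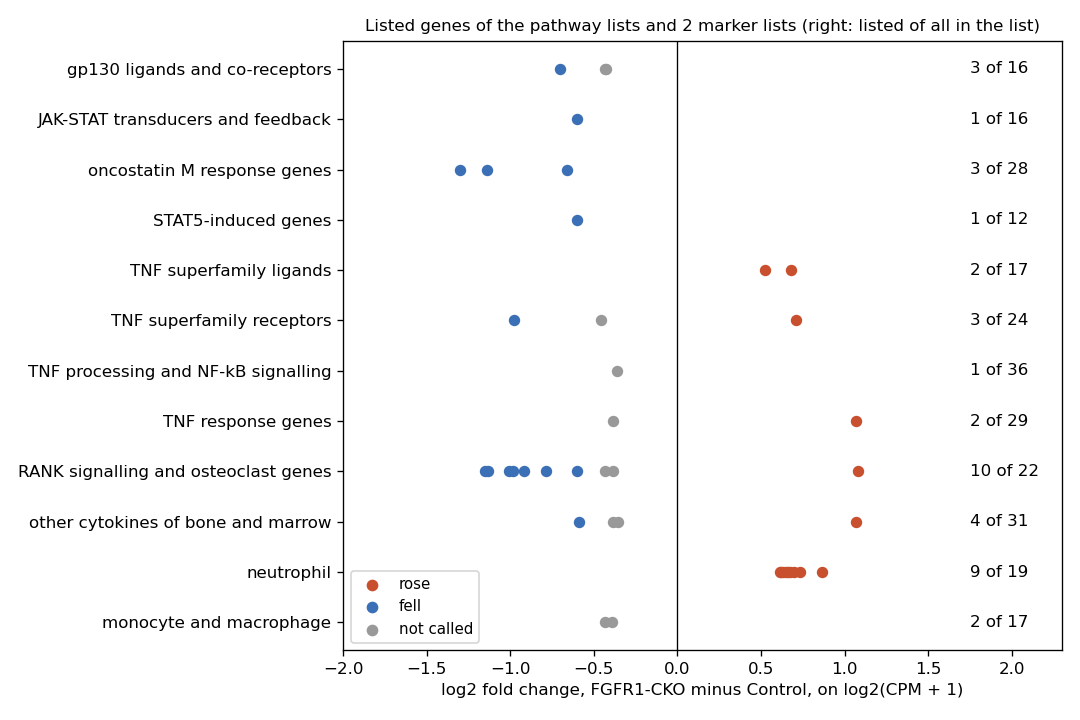
log2 fold change (FGFR1-CKO minus Control on log2(CPM + 1)) of each listed gene of the 10 pathway lists and of the neutrophil and the monocyte and macrophage markers, coloured by limma call. The numbers on the right give the listed genes of all genes in each list. The 3 oncostatin M response genes lie between -1.30 and -0.66, and the 9 neutrophil markers between 0.61 and 0.86.

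The genes most like each cytokine were sought within groups, after the group means had been removed from log2(CPM + 1), over the 8 libraries. For Osm the 5 highest correlations were with Vcan (0.97), Prr11 (0.97), Car12 (0.95), Slc12a7 (0.95) and Peg10 (0.94). Of these, Prr11 was higher in FGFR1-CKO and the other 4 were lower, where 1265 of the 1994 listed genes were lower. For Tnf they were Slc16a3 (0.98), Adam8 (0.97), Ly6g (0.96), Gjc1 (0.95) and Sparcl1 (0.95). Ly6g is a surface marker of neutrophils and Adam8 a metalloprotease of white blood cells, and both rose, Ly6g by 0.61 and Adam8 by 0.81 on the log2 scale. Slc16a3, a lactate transporter, rose by 0.76, while the gap junction gene Gjc1 fell, with a log2 fold change of -0.95, and Sparcl1 was at -0.45 without passing. With 8 libraries and 1994 genes such values are a description, and the names rest on single libraries: leaving out FGFR1-CKO replicate 3 kept 1 of the 5 for Osm and 0 of the 5 for Tnf, and leaving out FGFR1-CKO replicate 1 kept 4 of 5 for each.

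The workbook also holds gene lists from Ocy454, a mouse osteocyte-like cell line, headed as up with BGJ or up with FGF2, a ligand of Fgfr1. They carry no values, and how the 3 pairs of lists differ is not stated. Of the 10 genes of the rule Tnfrsf11b and Tnfrsf1b appear. Tnfrsf11b is in 1 of the 3 lists headed up with BGJ, a list of 151 genes of which 63 are in the bone table. Tnfrsf1b is in all 3 lists headed up with FGF2, of 66, 159 and 186 genes. Osm, Tnf, Osmr, Lifr, Tnfsf11 and Tnfrsf11a are in none of the 6. Elsewhere in the workbook the authors matched Osm to their focal adhesion list, with 44 listed genes, and Tnf to their apoptosis list, with 16.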

How the data were processed

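Bulk RNA-seq libraries, 4 Control and 4 FGFR1-CKO, were made from cortical bone. Random hexamers primed the cDNA after RNase H had been used to remove ribosomal RNA, per the labels' protocols. The submitters' processing notes name the mm10 build, STAR 2.7.9a, Subread 2.0.1, featureCounts, RSEM, DESeq2, edgeR and cutadapt, without their roles. The table of listed genes holds CPM per library, which the authors deposited without further scaling. Per the file headers, the authors also give p-values, adjusted p-values, log2 fold changes with their errors, and a signal, the mean normalized count over the 8 libraries.

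Library totals were recovered as the number that turned 100.0% of a library's CPM values into whole reads within 0.001 reads. The authors' size factors came from regressing their mean normalized counts on these reads. limma 3.58.1 (R 4.3.3, eBayes with trend, 2-sided) was fitted on log2(CPM + 1) of all 1994 listed genes with genotype as the term, and Benjamini-Hochberg adjustment ran over them. It was first tested on simulated counts. Confidence intervals are at 95%. Whether each library is a separate mouse is not stated in the labels, so the spread between samples may be technical. Every pair of replicate libraries differed beyond sampling noise (lowest chi-square per degree of freedom 4.70). Control replicate 2 gave 42.63, 14.28 and 42.67 with Control replicates 1, 3 and 4. Control replicate 4 gave 18.25 and 27.94 with Control replicates 1 and 3, so this measure does not single out Control replicate 4. FGFR1-CKO replicate 3 gave 38.45, 46.63 and 54.06 with FGFR1-CKO replicates 1, 2 and 4. The pairs among those replicates gave 4.70, 7.47 and 6.36, so the measure does set FGFR1-CKO replicate 3 apart.

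The members and gene lists were chosen with earlier results of these data known. Named genes are the listed members, Fgfr1, up to 4 called genes per pathway list with the largest fold change, up to 3 markers with the highest mean in each of 4 marker lists, and the 5 genes most like Osm and Tnf within groups. Genes of short lists that did not pass, Gm16159, Il1bos, Pag1, Ezr, Socs3, Csf1r and Dcstamp were added after their values or positions were seen. GENCODE M21 (mm10) gave positions and exon lengths and names 1922 of the 1994 symbols. RefSeq promoter windows were found for 8 of the 10 genes of the rule. The alternatives are size-factor rescaling, pseudocounts of 0.5 and 2, a filter at a mean of 10 CPM, no variance trend, leaving out each library, leaving out Control replicate 4 and FGFR1-CKO replicate 3 together, and Spearman correlation. The planned count test with edgeR was not run. The condition set for it, whole reads from the steps between the lowest values, was not met, since these stand for 2 to 25 reads. The reads recovered over all values would have allowed the fit.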

Additional observations from a re-analysis of the deposited data

Results flagged for a closer look

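Lifr CPM in the 4 FGFR1-CKO libraries had 1 library far from the others: replicate 2 held 712 CPM, while the other 3 held 572 to 589 CPM, and the gap to the nearest of them was 0.876 of the whole range, above the 95% critical value of Dixon's test for 4 samples. It was the 1 case among 22 gene or ratio groups checked, and chance alone gives about 5% of groups such a gap. The 712 CPM remained below the lowest Control library, 811 CPM.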

How the results depend on the processing

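The log2 difference of Osm was 1.42 to 1.63 over 14 alternatives, a description of the libraries that chose it. Tnf remained higher but dropped below a fold change of 0.5 with size-factor rescaling (0.43), with a pseudocount of 2 (0.45), and without Control replicate 2 (0.49), Control replicate 4 (0.48) or FGFR1-CKO replicate 4 (0.48), and the filter at 10 CPM removed it. Leaving out each library in turn gave 0.48 to 0.58. Of the 5 receptors and relatives that fell, 3 to 5 did so when each library was left out. The 3 stood without Control replicate 4 and without both Control replicate 4 and FGFR1-CKO replicate 3, as Lifr (-0.49 and -0.46) and Tnfrsf11a (-0.46 and -0.40) no longer passed. Genes that fell in the table went from 766 to 1156 with size-factor rescaling, which shifts all fold changes down, and genes that rose from 729 to 651, so 64.0% rather than 51.2% of calls were falls. The 5 genes most like each cytokine shared 2 with Spearman correlation for Osm and 2 for Tnf, and 1 to 4 for Osm and 0 to 5 for Tnf when each library was left out. The cause of these changes was otherwise not tested. No result reversed. No paired analysis was possible because the replicate numbers follow accession order and pair nothing. The planned edgeR test was not run. Tnf rests on 43 to 75 reads per library, and genes that the table does not list cannot be counted.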
